A study of Mus musculus with 12 samples.

Results

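The genes of MHC class I antigen presentation were followed through RNA-seq libraries of mouse macrophages. The 10 genes, chosen by symbol in the raw count table, were H2-K1, H2-D1, B2m, Tap1, Tap2, Tapbp, Psmb8, Psmb9, Psmb10 and Nlrc5. All 10 were among the 55573 genes of the table and among the 14197 that passed a filter on low counts, with at least 105 counts in every library. The cells were macrophages grown from bone marrow with M-CSF (5 ng/mL, 7 days), either alone (MΦs) or followed by 48 h beside 5TGM1 cells, a mouse myeloma line (MM-MΦs), and then sorted as CD11b+ F4/80+. The donors were C57BL/6 mice that all carried BMI1fl/fl, in which exons of the Polycomb gene Bmi1 are flanked by loxP sites. Mice without Cre were the wt group, and mice that also carried Mx1-Cre, in which interferon turns on the recombinase in many cell types and not in macrophages alone, were the BMI1-KO group. At 6 to 8 weeks of age all mice of both genotypes received poly I:C (5 doses of 15 mg/kg), itself an inducer of interferon, and marrow was harvested 4 weeks after it. The 4 groups (wt MΦs, BMI1-KO MΦs, wt MM-MΦs and BMI1-KO MM-MΦs) had 3 libraries each, numbered 1 to 3. The labels leave it unsaid whether they were separate mice, so a p-value here covers the spread among these libraries alone, which may be technical.

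Class I molecules display peptides from inside the cell to CD8 T cells. Proteasomes cut proteins into peptides, and under interferon the catalytic subunits encoded by Psmb8, Psmb9 and Psmb10 take the place of the constitutive subunits encoded by Psmb5, Psmb6 and Psmb7, in that order. The transporter made of Tap1 and Tap2 carries the peptides into the endoplasmic reticulum, where tapasin, encoded by Tapbp, helps load them onto a heavy chain (H2-K1 and H2-D1 encode the classical heavy chains of this strain) bound to β2-microglobulin, encoded by B2m. Nlrc5 encodes the transactivator that acts at class I promoters. Macrophages express the pathway constitutively and raise it in response to interferons.

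Library totals were 9662279 to 11142768 counts. Bmi1, the targeted gene, had 251, 263 and 321 counts in wt MΦs and 325, 281 and 364 in wt MM-MΦs, whereas every BMI1-KO library lists it at 0. The FPKM values of the BMI1-KO libraries imply totals 512 to 734 counts above the sums of the count table. That excess is larger than the Bmi1 count of any wt library and was not assigned to a gene. Whether the zeros of Bmi1 were measured cannot be told from these values and was not tested. The macrophage markers Adgre1, Itgam, Csf1r, Cd68, Mertk and Fcgr1 summed to 5079.7 to 7469.8 CPM (counts scaled to library size) over the 12 libraries, and all 6 reached 1 CPM in each group. On the first principal component (36.4% of the variance) the 4 libraries numbered 3 lay at one end, at 35.3 to 58.8. Those numbered 1 lay at the other end, at −55.2 to −31.6, and those numbered 2 between, at −11.5 to 4.19. Calls are given with and without the 4 libraries numbered 3. MΦs and MM-MΦs of the same number and genotype deviated from their group means together, with correlations across genes of 0.18 to 0.73, and were read as pairs. The co-culture tests of gene counts are therefore given without and with the pair as a block.

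Of the 10 genes, 7 lie on chromosome 17, where Psmb9, Tap1, Psmb8 and Tap2 follow each other within the MHC (GENCODE annotation, GRCm38). Psmb9 was at chromosome 17, 34181987 to 34187764, minus strand, Tap1 at chromosome 17, 34187553 to 34197225, plus strand, Psmb8 at chromosome 17, 34197721 to 34201454, plus strand and Tap2 at chromosome 17, 34203527 to 34216321, plus strand. In these GENCODE models the first exons of Psmb9 and Tap1 overlap by 212 bases on opposite strands. Exons of Tapbp share 149 bases with Zbtb22 and 904 with the antisense Gm19412, those of Tap2 533 with Gm15821 and 165 with Gm20496, those of Psmb8 498 with Gm20496 and those of Nlrc5 78 with 9330175E14Rik. No source used here gives the strand setting of the counting, so reads from these bases cannot be told apart. Tapbp was at chromosome 17, 33915899 to 33929292, plus strand, H2-K1 at chromosome 17, 33996017 to 34000347, minus strand and H2-D1 at chromosome 17, 35262730 to 35267499, plus strand. The other 3 genes are elsewhere. B2m was at chromosome 2, 122147686 to 122153083, plus strand, Psmb10 at chromosome 8, 105935735 to 105938444, minus strand and Nlrc5 at chromosome 8, 94434356 to 94527272, plus strand. H2-K1, H2-D1 and the other class I heavy chains are near-identical in parts, and how reads that match several of them were counted is not stated, so their levels are uncertain to that extent.

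The promoters shown are those of Tap1, called on co-culture in both genotypes in the fit with pairs, of B2m, called in BMI1-KO alone, and of the heavy chain genes H2-K1 and H2-D1, which did not pass. Each sequence runs from 250 bases before to 50 after the RefSeq start site (GRCm38.p6), 5′ to 3′ along the gene. Capitals mark matches, on either strand, to GAANNGAAA (1 form of an interferon-stimulated response element) and TTCNNNGAA (the core of a gamma-activated site). They also mark CCAAT (bound by NF-Y) and TGACG (bound by CREB and ATF factors). No matches to different motifs overlapped.
Tap1, chr17:34187306-34187605, plus strand: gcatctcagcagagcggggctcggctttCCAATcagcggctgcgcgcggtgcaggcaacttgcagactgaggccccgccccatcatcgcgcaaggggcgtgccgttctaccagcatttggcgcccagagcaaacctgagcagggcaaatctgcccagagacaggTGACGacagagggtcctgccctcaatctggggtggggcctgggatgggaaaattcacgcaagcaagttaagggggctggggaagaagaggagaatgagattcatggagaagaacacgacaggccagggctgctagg
B2m, chr2:122147437-122147736, plus strand: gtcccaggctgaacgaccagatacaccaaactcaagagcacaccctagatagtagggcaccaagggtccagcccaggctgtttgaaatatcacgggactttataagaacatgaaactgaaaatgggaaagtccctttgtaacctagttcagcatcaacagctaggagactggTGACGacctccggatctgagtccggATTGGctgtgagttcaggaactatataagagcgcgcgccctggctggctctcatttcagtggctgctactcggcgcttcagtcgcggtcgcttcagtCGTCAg
H2-K1, chr17:34000298-34000597, minus strand: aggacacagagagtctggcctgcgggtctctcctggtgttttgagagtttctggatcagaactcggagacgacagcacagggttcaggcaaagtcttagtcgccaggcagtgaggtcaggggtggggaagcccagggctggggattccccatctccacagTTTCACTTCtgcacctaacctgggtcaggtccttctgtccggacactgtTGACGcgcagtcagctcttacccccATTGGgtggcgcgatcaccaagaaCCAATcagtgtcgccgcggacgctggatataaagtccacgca
H2-D1, chr17:35262844-35263143, plus strand: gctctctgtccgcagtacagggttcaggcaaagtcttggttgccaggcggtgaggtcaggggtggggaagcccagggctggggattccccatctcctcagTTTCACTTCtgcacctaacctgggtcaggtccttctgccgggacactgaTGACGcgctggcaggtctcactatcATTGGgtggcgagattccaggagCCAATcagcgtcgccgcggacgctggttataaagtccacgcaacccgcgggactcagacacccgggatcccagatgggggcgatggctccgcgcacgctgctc
Windows were found for 8 of the 10 genes, and for Tap2 and Nlrc5 none was used here. The window of Psmb9 on the minus strand shares 275 of its 300 bases with that of Tap1. The RefSeq start sites of these divergent genes are 226 bases apart, so from them Psmb9 and Tap1 do not overlap, unlike in the GENCODE models. TGACG was found in 5 of the 8 (H2-K1, H2-D1, B2m, Tap1 and Psmb9, the last 2 by the same bases), against 20.8% of all 32851 promoter windows of this length. CCAAT was found in 6 of the 8, all but Psmb8 and Psmb10 and with the same bases again counted for Tap1 and Psmb9, against 37.4% of all windows. GAANNGAAA was found in H2-K1 and H2-D1 alone, as TTTCACTTC on the strand shown, against 7.52% of all windows. Other forms of this element were not searched. The window of B2m holds gaaactgaaa, where GAA and GAAA are further apart, and it is left unmarked. TTCNNNGAA was found in Psmb8 alone, against 8.30% of all windows. A match is a description of the letters and not a binding site.

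Levels of the 10 genes spanned more than 2 orders of magnitude per length. In FPKM, which the authors scaled by summed exon size, B2m had the highest level, at 807 ± 213 (mean ± SD over all 12 libraries, as the following levels). The heavy chains followed with 391 ± 145 for H2-D1 and 198 ± 47.7 for H2-K1, and Tapbp stood at 80.2 ± 15.2. These 4 kept their order in 12 of 12 libraries. The other 6 genes were far lower, from 13.9 ± 2.75 for Psmb10 through 12.3 ± 4.41 for Nlrc5, 9.61 ± 1.23 for Tap2, 8.87 ± 1.95 for Psmb8 and 8.07 ± 2.09 for Tap1 to 4.75 ± 1.41 for Psmb9. Among them the order was loose: Psmb10 was above Nlrc5 in 8 of 12 libraries, Nlrc5 above Tap2 in 7, Tap2 above Psmb8 in 10 and Psmb8 above Tap1 in 7, and the means of each of these neighbours differed by less than the larger of their SDs. Psmb9 was below Tap1 in 12 of 12. The tapasin gene was thus listed about an order of magnitude above the genes of the transporter that tapasin binds.

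**Figure D1:**
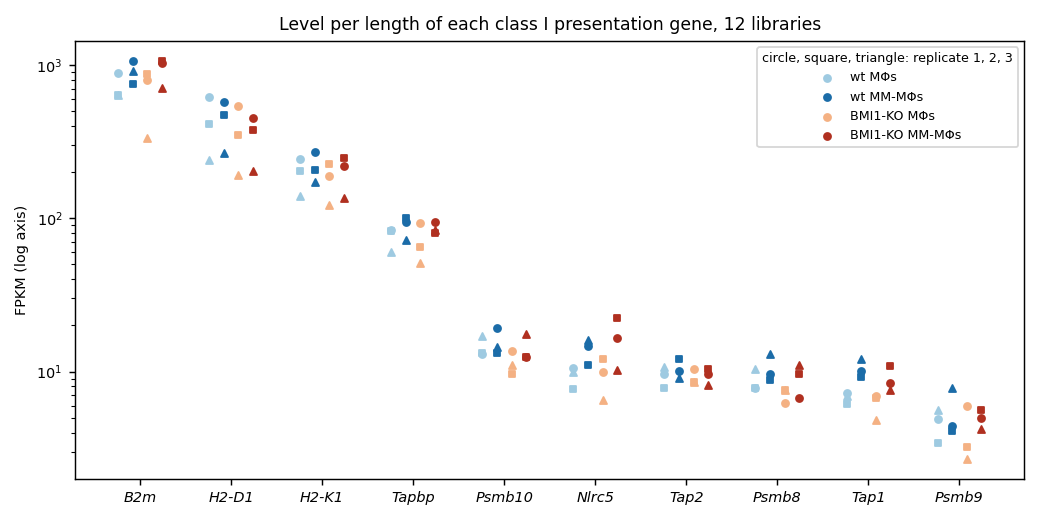
FPKM on a log axis for the 10 genes, ordered by their mean over 12 libraries; colours are the 4 groups and marker shapes the replicate numbers. B2m, H2-D1, H2-K1 and Tapbp lie apart from the rest, which range from 2.70 to 22.4 FPKM and overlap in part.

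Co-culture with myeloma cells was accompanied by higher levels of several class I genes, with Nlrc5 and Tap1 in the lead, once the pairs entered the model. In the model without pairs none of the 10 genes passed edgeR's quasi-likelihood test at an adjusted p of 0.05 over all genes, in wt (0 of 10, where 0.0916% of all genes were called) or in BMI1-KO (0 of 10, where 0.190% were called). DESeq2 and limma-voom also called 0 of the 10 in both genotypes. Over all 14197 genes DESeq2 called 58 in wt and 91 in BMI1-KO, and limma-voom 2 and 25. At an unadjusted p under 0.05 edgeR had 1 gene in wt (Tap1), where 1.99% of all genes were. In BMI1-KO it had 2 (Tap1 and Nlrc5), where 2.94% of all genes were. With the pairs as blocks 2 genes rose in wt (Nlrc5 and Tap1; 1.06% of all genes were called higher) and 3 in BMI1-KO (Nlrc5, B2m and Tap1; 1.85% of all genes). None of the 10 fell in either fit. The median log2 fold change of the 10 genes in this fit was 0.25 in wt and 0.37 in BMI1-KO, beside medians of 0.004 and −0.0071 over all genes tested. The 2 comparisons share no libraries. The 10 genes were chosen with earlier results of these data known, so their counts beside the shares of all genes are a description.

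Transcripts of the myeloma cells cannot be told apart by sequence from those of the macrophages in these tables, since both are of mouse origin, and in bulk RNA a shift in the share of a cell type cannot be told apart from a shift in RNA per cell. Immunoglobulin transcripts moved with co-culture: Igkc had 1.22 to 16.0 CPM in wt MΦs, 42.2 to 137 in wt MM-MΦs, 0.833 to 2.27 in BMI1-KO MΦs and 37.9 to 109 in BMI1-KO MM-MΦs. Ighg2b had 0 to 11.5 CPM in wt MΦs against 42.3 to 121 in wt MM-MΦs, and 0 to 1.67 in BMI1-KO MΦs against 40.9 to 106 in BMI1-KO MM-MΦs. Of the 10 plasma cell markers, 6 reached 1 CPM in a library of the MM-MΦ groups, and Jchain, Mzb1, Tnfrsf17 and Derl3 stayed under 1 CPM in all MM-MΦ libraries. The list summed to 197 to 607 CPM in wt MΦs, 395 to 876 in wt MM-MΦs, 148 to 429 in BMI1-KO MΦs and 364 to 604 in BMI1-KO MM-MΦs. In the same order Sdc1 had 24.2 to 119, 31.8 to 134, 7.34 to 21.6 and 13.7 to 20.0 CPM. Prdm1 had 93.5 to 216, 122 to 271, 97.7 to 173 and 87.9 to 180. Slamf7 had 68.6 to 306, 94.2 to 349, 30.9 to 238 and 38.0 to 317. Irf4 had 4.52 to 13.6, 8.59 to 17.3, 1.91 to 3.53 and 8.32 to 8.86. Among these the cultures overlapped, except for Irf4 in BMI1-KO. The part of myeloma cell transcripts in the rise of Nlrc5, Tap1 and B2m was not tested. Of the B cell list, Ms4a1 and Cd79a were under 1 CPM in all 12 libraries, Cd22 had 7.25 to 45.3 CPM, and Pax5 had at most 0.286 CPM in MΦs against 0.30 to 1.07 CPM in MM-MΦs. Of the 8 T and NK cell markers 7, with Cd3e, Cd3d and Cd3g among them, were under 1 CPM in all libraries, and Cd4 had 7.68 to 9.86 CPM in wt MΦs, 7.72 to 13.9 in wt MM-MΦs, 6.62 to 22.8 in BMI1-KO MΦs and 7.51 to 22.95 in BMI1-KO MM-MΦs. The 7 neutrophil markers summed to 4.67 to 10.1 CPM in wt MΦs, 4.39 to 11.8 in wt MM-MΦs, 7.08 to 49.7 in BMI1-KO MΦs and 11.3 to 94.9 in BMI1-KO MM-MΦs, with Ly6g and Elane under 1 CPM in all libraries. The 5 stromal and endothelial markers summed to 30.2 to 52.4 CPM in wt MΦs, 22.02 to 59.7 in wt MM-MΦs, 30.6 to 40.8 in BMI1-KO MΦs and 44.8 to 72.6 in BMI1-KO MM-MΦs. All 6 dendritic cell and all 4 erythroid markers were under 1 CPM in all libraries. The part of these cell types in the results was not tested either.

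**Figure D2:**
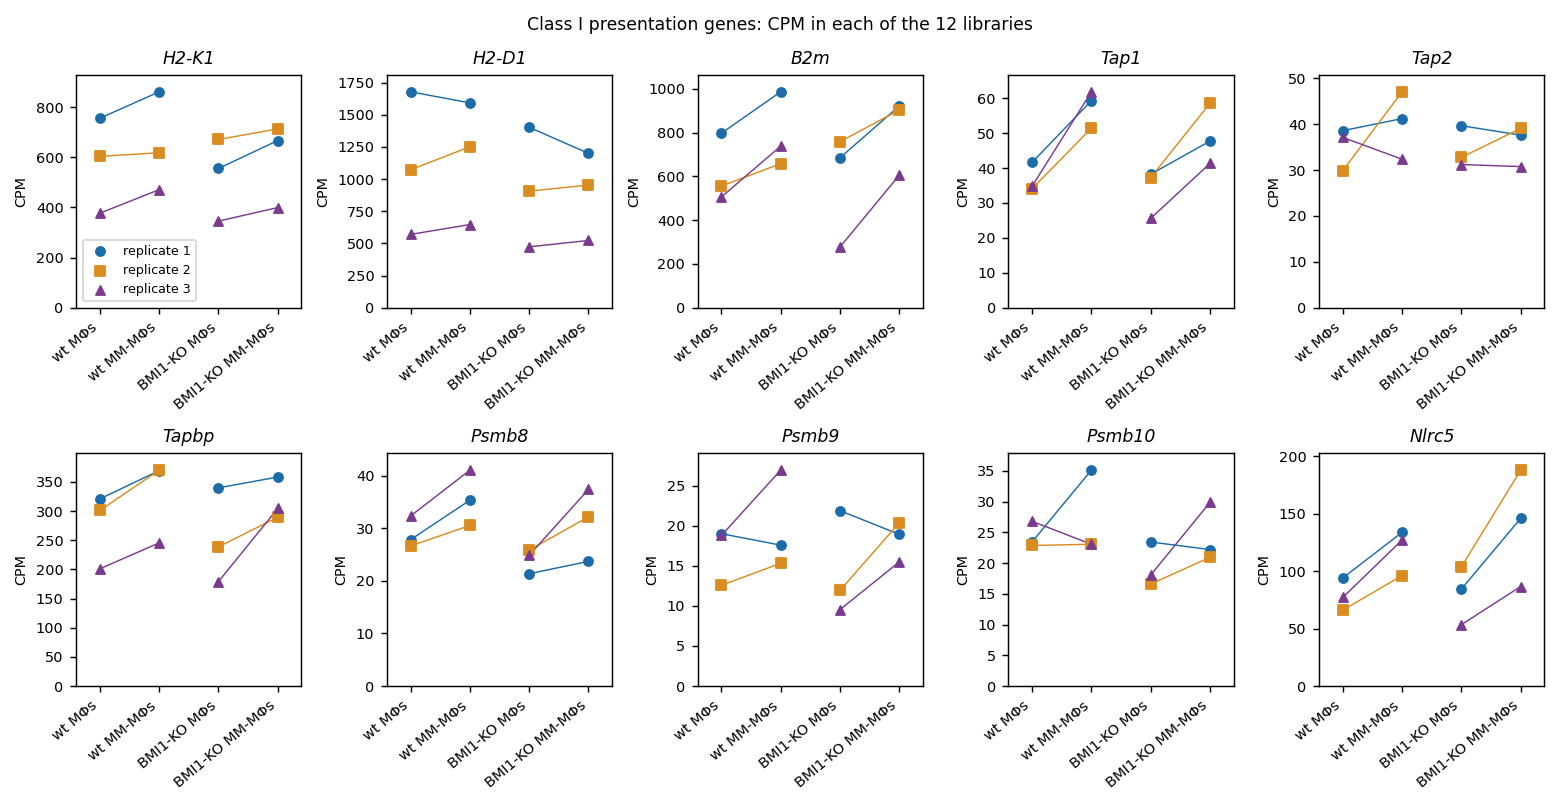
CPM of each of the 10 genes (one panel each, axes from 0) in the 12 libraries; marker shape and colour give the replicate number and lines join MΦs and MM-MΦs of the same number and genotype. Nlrc5 and Tap1 are higher at the MM-MΦ end of all 6 lines, while the lines of H2-K1 and H2-D1 are nearly flat and lie far apart by replicate number.

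Nlrc5, the class I transactivator, had 94.2, 66.2 and 77.2 CPM in wt MΦs 1 to 3 and 134, 96.2 and 127 CPM in wt MM-MΦs. All 3 wt MM-MΦ libraries lay above all 3 wt MΦ libraries, as 5.66% of all genes did in either direction. In BMI1-KO it had 84.5, 104 and 53.5 CPM in MΦs and 146, 188 and 86.7 CPM in MM-MΦs, and these groups overlap, with replicate 3 the lowest in both. Within the wt pairs the log2 difference was 0.51, 0.54 and 0.72, and within the BMI1-KO pairs 0.79, 0.86 and 0.70, higher in 6 of 6 pairs. With blocks the estimate was log2 0.59 (SE 0.087; adjusted p by edgeR = 0.000339) in wt and 0.78 (SE 0.087, adjusted p = 6.70e-06) in BMI1-KO. Without blocks the values were 0.59 (SE 0.29, edgeR adjusted p = 1) and 0.80 (SE 0.29, adjusted p = 1). Nlrc5 was called in each of 12 fits with blocks in both genotypes, including that without the 4 libraries numbered 3 (log2 fold change 0.52 with edgeR adjusted p = 0.0183 in wt, 0.82 with adjusted p = 0.000188 in BMI1-KO).

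Tap1 and Tap2, which encode the subunits of the peptide transporter, differed in that Tap1 passed the test with blocks and Tap2 did not. Tap1 had 41.7, 34.1 and 34.8 CPM in wt MΦs and 59.3, 51.4 and 61.8 CPM in wt MM-MΦs. In BMI1-KO it had 38.2, 37.3 and 25.6 CPM in MΦs and 47.7, 58.5 and 41.3 CPM in MM-MΦs. The culture groups did not overlap in either genotype, as for 5.66% of all genes in wt and 7.08% in BMI1-KO, counting both directions. With blocks the log2 fold change of Tap1 was 0.64 (SE 0.11, edgeR adjusted p = 0.00256) in wt and 0.55 (SE 0.12, adjusted p = 0.00872) in BMI1-KO. Without blocks it was 0.64 (edgeR adjusted p = 0.829) and 0.55 (adjusted p = 1). Without the 4 libraries numbered 3 the values with blocks were 0.55 in wt (edgeR adjusted p = 0.104) and 0.49 in BMI1-KO (adjusted p = 0.14). The wt call was also lost without wt pair 3 (0.54, edgeR adjusted p = 0.132), and the BMI1-KO call without BMI1-KO pair 2 (0.50, adjusted p = 0.116) or pair 3 (0.50, adjusted p = 0.0991).

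Tap2 had 38.6, 29.9 and 37.1 CPM in wt MΦs and 41.2, 47.1 and 32.4 CPM in wt MM-MΦs. In BMI1-KO it had 39.7, 32.8 and 31.2 CPM in MΦs and 37.6, 39.1 and 30.8 CPM in MM-MΦs. It was higher in 3 of 6 pairs, and its log2 fold change with blocks was 0.18 (95% CI −0.11 to 0.47) in wt and 0.052 (95% CI −0.24 to 0.35) in BMI1-KO. The intervals of Tap1 and Tap2 overlap in both genotypes, with that of Tap1 in BMI1-KO at 0.31 to 0.79. The difference between these genes was not tested. Tapbp had 321, 301 and 201 CPM in wt MΦs, 369, 370.3 and 246 CPM in wt MM-MΦs, 339.9, 239 and 179 CPM in BMI1-KO MΦs and 358, 289 and 304 CPM in BMI1-KO MM-MΦs. Tapbp was higher in 6 of 6 pairs, with the largest difference in BMI1-KO pair 3 (log2 0.76). With blocks its log2 fold change was 0.26 (edgeR adjusted p = 0.469) in wt and 0.37 (adjusted p = 0.0587) in BMI1-KO, and neither passed. DESeq2 and limma-voom with the same blocks called it in BMI1-KO (adjusted p = 0.0355 and 0.0372), as did edgeR without BMI1-KO pair 1 (adjusted p = 0.0119).

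B2m, the light chain shared by all class I molecules, had 797, 556 and 506 CPM in wt MΦs and 987, 658 and 738 CPM in wt MM-MΦs. It had 685, 759 and 277 CPM in BMI1-KO MΦs, where replicate 3 was the lowest of all 12 libraries, and in BMI1-KO MM-MΦs 922, 903 and 605 CPM. It was higher in 6 of 6 pairs, by log2 0.31, 0.24 and 0.54 in the wt pairs and 0.43, 0.25 and 1.13 in the BMI1-KO pairs. With blocks the log2 fold change was 0.37 (SE 0.12, edgeR adjusted p = 0.246) in wt, which did not pass, and 0.60 (SE 0.12, adjusted p = 0.00484) in BMI1-KO. The BMI1-KO value fell to 0.35 (edgeR adjusted p = 0.0957) without BMI1-KO pair 3 and to 0.34 (adjusted p = 0.144) without the 4 libraries numbered 3, and DESeq2 with the same blocks gave adjusted p = 0.0876. In wt B2m passed only when BMI1-KO pair 3 was left out (edgeR adjusted p = 0.0177), which changes the estimate of spread and not the wt libraries.

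The heavy chain genes H2-K1 and H2-D1 did not pass in either genotype. H2-K1 had 756, 604 and 377 CPM in wt MΦs, 861, 618 and 471 CPM in wt MM-MΦs, 555, 671 and 345 CPM in BMI1-KO MΦs and 667, 713 and 399 CPM in BMI1-KO MM-MΦs. H2-K1 was higher in 6 of 6 pairs by a small margin (log2 0.19, 0.034 and 0.32 in wt, 0.26, 0.088 and 0.21 in BMI1-KO). With blocks the log2 fold change was 0.18 (95% CI 0.014 to 0.35, edgeR adjusted p = 0.676) and 0.19 (95% CI 0.021 to 0.35, adjusted p = 0.379). H2-D1 had 1678, 1073 and 570.2 CPM in wt MΦs, 1592, 1251 and 647 CPM in wt MM-MΦs, 1402, 906 and 473 CPM in BMI1-KO MΦs and 1200.0, 954 and 523 CPM in BMI1-KO MM-MΦs. H2-D1 was higher in 4 of 6 pairs, with both pairs of number 1 lower on co-culture. Its log2 fold change with blocks was 0.11 (95% CI −0.072 to 0.29) in wt and −0.0032 (95% CI −0.18 to 0.18) in BMI1-KO. A rise above 0.29 lay outside both intervals of this fit, which takes the pairs as given. Without blocks, leaving out single libraries gave −0.24 to 0.50 in wt and −0.37 to 0.37 in BMI1-KO.

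The immunoproteasome genes, all under 50 CPM, did not pass in either genotype. Psmb8 had 27.8, 26.6 and 32.3 CPM in wt MΦs, 35.3, 30.5 and 41.1 CPM in wt MM-MΦs, 21.4, 25.8 and 24.9 CPM in BMI1-KO MΦs and 23.7, 32.2 and 37.4 CPM in BMI1-KO MM-MΦs. All 6 pairs had more Psmb8 in MM-MΦs, with log2 fold changes with blocks of 0.30 (edgeR adjusted p = 0.627) in wt and 0.36 (adjusted p = 0.234) in BMI1-KO. In the GENCODE models the first exon of Psmb9 overlaps that of Tap1. Psmb9 had 19.0, 12.6 and 18.8 CPM in wt MΦs, 17.6, 15.3 and 26.9 CPM in wt MM-MΦs, 21.9, 11.9 and 9.53 CPM in BMI1-KO MΦs and 18.9, 20.3 and 15.5 CPM in BMI1-KO MM-MΦs. It was higher in pairs 2 and 3 and lower in pair 1 of both genotypes, unlike its divergent neighbour Tap1. Its log2 fold change with blocks was 0.24 (95% CI −0.16 to 0.63) in wt and 0.41 (95% CI 0.0047 to 0.81) in BMI1-KO. Psmb10, on chromosome 8 with Nlrc5, had 23.5, 22.9 and 26.8 CPM in wt MΦs, 35.1, 23.1 and 23.1 CPM in wt MM-MΦs, 23.4, 16.6 and 18.1 CPM in BMI1-KO MΦs and 22.2, 20.9 and 29.9 CPM in BMI1-KO MM-MΦs. It was higher in 4 of 6 pairs and did not pass in either genotype (log2 fold change with blocks 0.13, 95% CI −0.22 to 0.48, and 0.33, 95% CI −0.023 to 0.69).

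**Figure D3:**
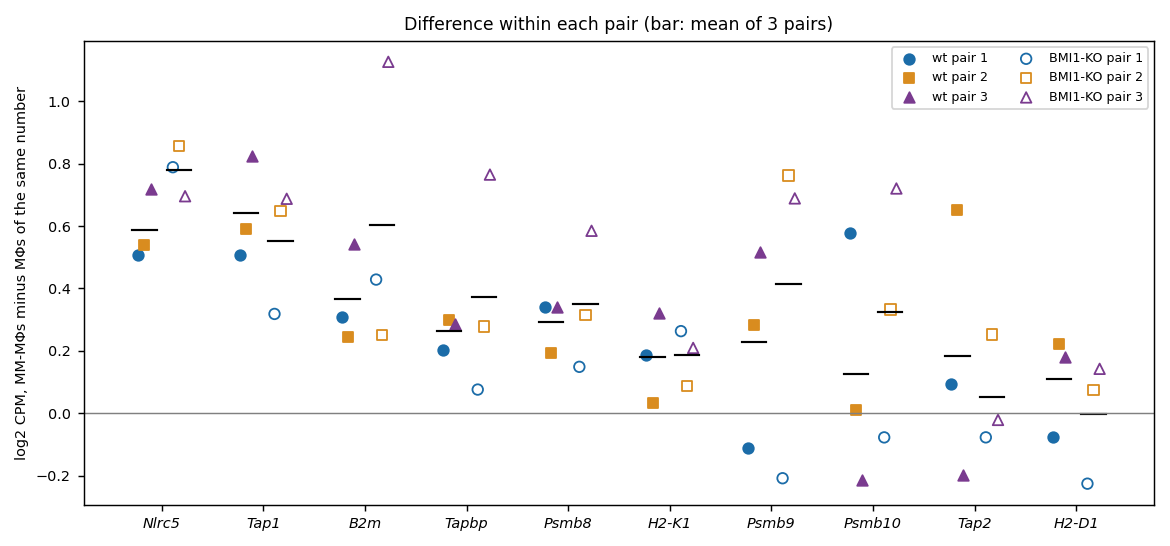
Difference in log2 CPM between MM-MΦs and MΦs of the same number for each of the 10 genes; filled markers are wt, open markers BMI1-KO, shapes the pair number and bars the mean of 3 pairs. Nlrc5, Tap1, B2m, Tapbp, Psmb8 and H2-K1 are above 0 in all 6 pairs, and Psmb9, Psmb10, Tap2 and H2-D1 lie on both sides of 0.

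Across both genotypes 6 of the 10 genes (Nlrc5, Tap1, B2m, Tapbp, Psmb8 and H2-K1) were higher in MM-MΦs in 6 of 6 pairs, against 4.90% of all genes tested. In wt alone these same 6 were higher in 3 of 3 pairs (15.0% of all genes), as they were in BMI1-KO (14.7% of all genes). A fit with 1 co-culture effect common to both genotypes, with the 6 pairs as blocks and chosen after the data were seen, called 5 of the 10 higher, where 2.92% of all genes were called higher. These were Nlrc5 (0.69, SE 0.062, edgeR adjusted p = 1.64e-07), Tap1 (0.60, SE 0.079, adjusted p = 2.95e-05), B2m (0.48, SE 0.084, adjusted p = 0.000944), Tapbp (0.32, SE 0.069, adjusted p = 0.00802) and Psmb8 (0.33, SE 0.087, adjusted p = 0.0379), all as log2 fold changes. H2-K1 stood at 0.18 (edgeR adjusted p = 0.0626). Tap2, H2-D1, Psmb9 and Psmb10 did not pass.

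Whether the co-culture effect differed between genotypes was tested as an interaction. With blocks 0 of the 10 genes passed edgeR, where 0.00704% of all genes (1 gene) were called. At an unadjusted p under 0.05 edgeR had 0 of the 10, where 3.32% of all genes were. DESeq2 and limma-voom with the same blocks called 0 of the 10 as well. The effect in BMI1-KO minus that in wt was 0.19 for Nlrc5 (95% CI −0.063 to 0.45), 0.23 for B2m (95% CI −0.11 to 0.58) and −0.091 for Tap1 (95% CI −0.43 to 0.25), on the log2 scale. These intervals span 0 and leave room for a difference of up to about 0.58 for B2m, so that the call of B2m in BMI1-KO and not in wt does not show a difference between genotypes. Without blocks 0 of the 10 passed either, with 0 at an unadjusted p under 0.05, where 0.909% of all genes were.

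Between BMI1-KO and wt no change of the 10 genes was detected. In MΦs 0 of 10 passed edgeR between BMI1-KO and wt (0.0493% of all genes were called), and in MM-MΦs 0 of 10 passed (0.0634%). None had an unadjusted p under 0.05 by edgeR, where 5.77% of all genes did in MΦs and 5.02% in MM-MΦs. DESeq2 and limma-voom called 0 of the 10 in both cultures. Over all genes DESeq2 called 80 in MΦs and 89 in MM-MΦs, and limma-voom 8 and 9. Point estimates leaned low. In MΦs 9 of 10 log2 fold changes were below 0, as were 51.7% of all genes (median −0.14, beside −0.01 over all genes). In MM-MΦs 8 of 10 were, as were 52.5% of all genes (median −0.14, beside −0.014). The 10 genes share the same libraries, and this lean was not tested. H2-D1 was at −0.38 (95% CI −1.46 to 0.70) in MM-MΦs and −0.26 (95% CI −1.33 to 0.82) in MΦs. These intervals are wide, and H2-D1 differed up to 2.96-fold between replicates of a group.

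Psmb8 in MΦs was the 1 gene of the 10 whose genotypes did not overlap, with 21.4, 25.8 and 24.9 CPM in BMI1-KO against 27.8, 26.6 and 32.3 CPM in wt (log2 fold change −0.27, SE 0.19, edgeR adjusted p = 0.973). Such separation held for 10.0% of all genes in this comparison, and 1 of 10 is that share. Psmb10 had the lowest estimate in MΦs (−0.33, 95% CI −0.81 to 0.15), with groups of 19.4 ± 3.61 and 24.4 ± 2.12 CPM (mean ± SD, n = 3). Nlrc5 had the highest estimate in MM-MΦs (0.24, 95% CI −0.40 to 0.87), and BMI1-KO MM-MΦ replicate 3 lay below all 3 wt MM-MΦ libraries while replicates 1 and 2 lay above. In MM-MΦs 0 of the 10 genes separated the genotypes, where 8.85% of all genes did.

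**Figure D4:**
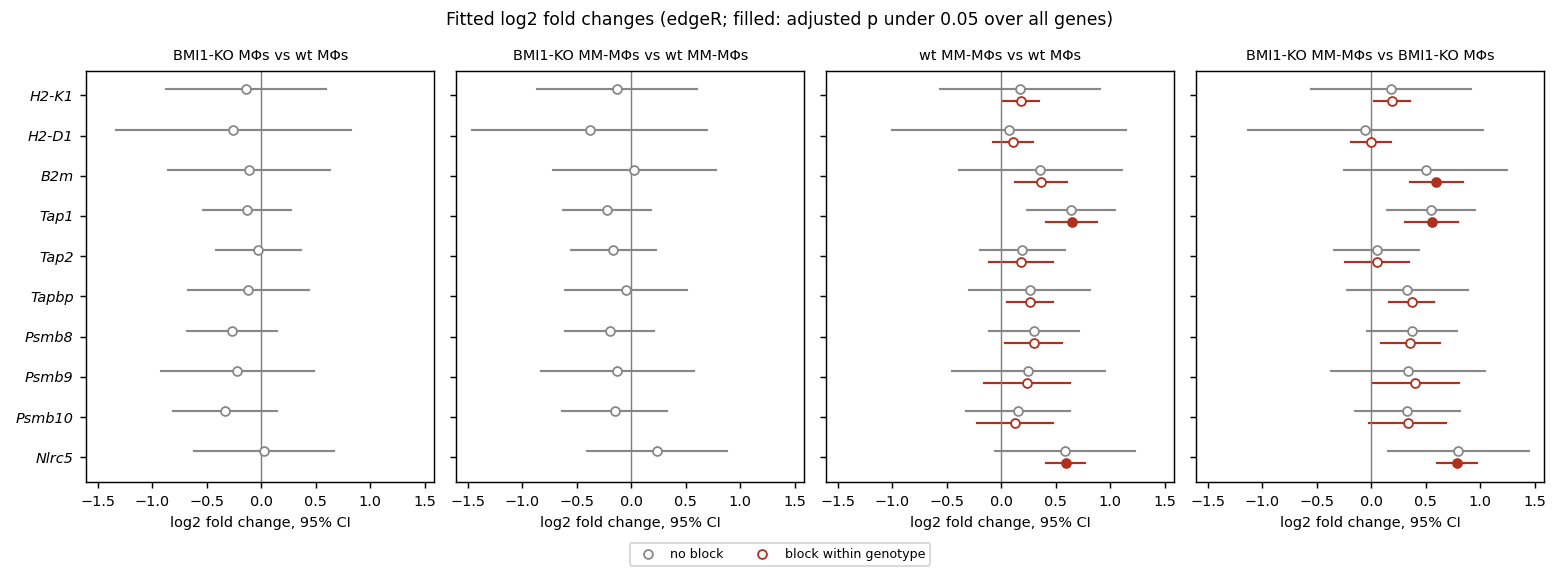
Log2 fold changes with 95% confidence intervals for the 10 genes in 4 comparisons, from edgeR without blocks (grey) and, for co-culture, with the pairs as blocks (red); filled points passed an adjusted p of 0.05 over all genes. Filled points are Tap1 and Nlrc5 in wt and B2m, Tap1 and Nlrc5 in BMI1-KO, and all genotype intervals span 0.

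The heavy chain genes varied more with replicate number than with genotype or co-culture. H2-D1 was lowest in replicate 3 and highest in replicate 1 in all 4 groups, with wt MΦs at 1678, 1073 and 570.2 CPM. H2-K1 was also lowest in replicate 3 in all 4 groups, a pattern that 13.5% of all genes showed. Averaged over groups, replicate 3 lay 1.16 log2 units below the mean of replicates 1 and 2 for H2-D1, 0.77 below for H2-K1, 0.62 below for B2m and 0.49 below for Tapbp. Psmb8 went the other way, 0.27 above, and was highest in replicate 3 in 3 of 4 groups. Over all genes the median absolute difference was 0.29. Genes of the pathway thus ordered the libraries differently, and what separates number 3 from the others is not given by the labels.

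The sum of squares of log2 CPM over the 12 libraries was split into its parts. Pairs within a genotype held 91.5% of it for H2-D1 and 90.5% for H2-K1, beside a median of 55.8% over all genes. Co-culture held 66.5% for Tap1, 49.4% for Nlrc5, 35.2% for Psmb8, 26.0% for B2m and 23.1% for Tapbp, beside a median of 2.96% over all genes, and 0.193% for H2-D1. Genotype held at most 19.5% (Psmb8), beside a median of 6.46%. For Nlrc5 the part left after genotype, co-culture and pairs was 0.688%, and for Tap2 it was 49.2%.

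**Figure D5:**
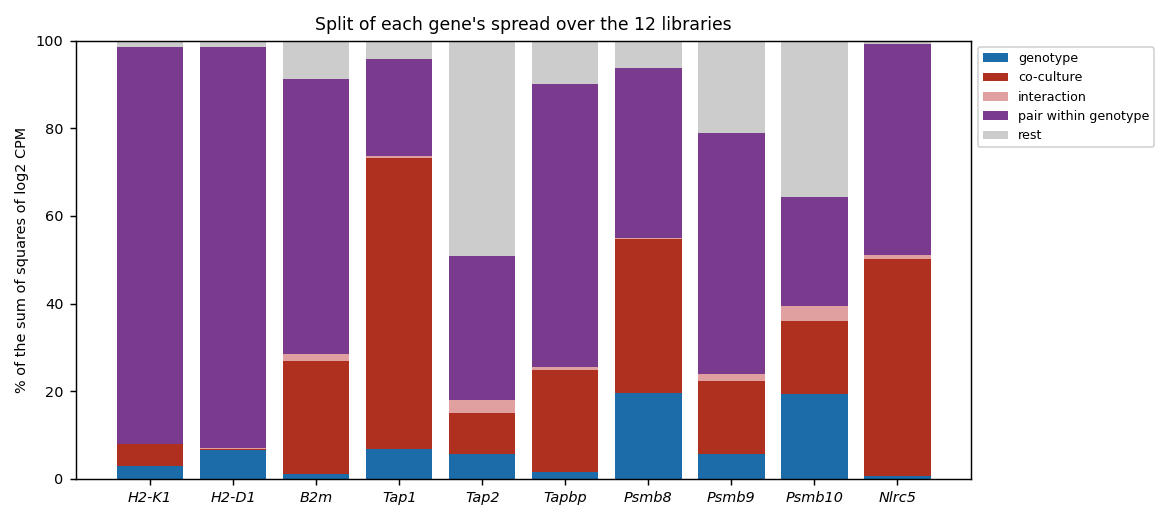
Share of the sum of squares of log2 CPM over 12 libraries that falls to genotype, co-culture, their interaction, pairs within a genotype and the rest, for each of the 10 genes (bars sum to 100%). The pair takes over 90% for H2-K1 and H2-D1, and co-culture is the largest part for Tap1 and Nlrc5.

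Ratios of immunoproteasome to constitutive subunits were compared within libraries, where scaling cancels. The log2 ratio of FPKM of Psmb8 to Psmb5, the chymotrypsin-like subunits, was −1.96, −1.84 and −2.27 in wt MΦs and −1.76, −1.96 and −1.78 in wt MM-MΦs. In BMI1-KO it was −2.11, −2.41 and −2.29 in MΦs and −1.68, −1.79 and −2.06 in MM-MΦs, where the groups did not overlap. The difference on co-culture was 0.43 in BMI1-KO (exact permutation test, two-sided, p = 0.1, the smallest that 3 against 3 allows, adjusted p = 0.8 over 12 tests) and 0.19 in wt (exact p = 0.3). Psmb9 to Psmb6 was higher on co-culture by log2 0.28 in wt and 0.47 in BMI1-KO, less than its spread in both (exact p = 0.6 and 0.4). Psmb10 to Psmb7 differed by −0.074 in wt and 0.35 in BMI1-KO (exact p = 0.9 and 0.4). Within BMI1-KO pairs the log2 ratio of Psmb8 to Psmb5 was higher in MM-MΦs in 3 of 3, by 0.43, 0.62, 0.24, and that of Psmb10 to Psmb7 in 3 of 3, by 0.012, 0.31, 0.72. In wt they were higher in 2 of 3 and 1 of 3 pairs, and Psmb9 to Psmb6 was higher in 2 of 3 pairs of each genotype. The ratios were not tested by pair. The constitutive genes themselves had log2 fold changes with blocks of 0.1, −0.048 and 0.20 for Psmb5, Psmb6 and Psmb7 in wt and −0.064, −0.051 and −0.015 in BMI1-KO, and none passed. Between genotypes the exact p of the ratios was 0.2 or more in either culture.

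Most other genes of the pathway did not pass on co-culture. With blocks 1.06% of all genes were called higher in wt and 1.85% in BMI1-KO. Of the 14197 genes, 6 were called lower in wt and 45 in BMI1-KO. Of 16 genes for loading and the proteasome, 0 passed in wt and 1 rose in BMI1-KO in the fit with blocks: Psme1, a subunit of the PA28 activator of the proteasome, at 0.43 (SE 0.099, edgeR adjusted p = 0.0218), beside 0.23 in wt (adjusted p = 0.637). Of 14 other class I and class I-like genes tested, 1 rose in wt, and 2 rose and 1 fell in BMI1-KO. H2-T24, a non-classical heavy chain, rose by 1.38 in wt (edgeR adjusted p = 0.000769) and 1.40 in BMI1-KO (adjusted p = 0.000462), a larger estimate than for any of the 10 genes, from 5.38 to 12.3 CPM in wt MΦs to 21.6 to 29.2 CPM in wt MM-MΦs. H2-T23, which encodes Qa-1, rose in BMI1-KO (0.64, adjusted p = 0.000529 by edgeR) and was at 0.39 in wt (adjusted p = 0.071). H2-K2 fell by 0.42 on the log2 scale in BMI1-KO (edgeR adjusted p = 0.0376) and at 0.031 in wt. The H2-T genes share sequence with each other, and H2-T23 and H2-K2 were named after their values were seen.

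Among the regulators of class I genes, Irf7 and Stat2 rose in both genotypes and Irf9 in wt in the fit with blocks. Stat2, a subunit of the interferon-activated ISGF3 complex, rose by 1.02 (edgeR adjusted p = 1.85e-06) and 1.18 (adjusted p = 1.75e-07), and it passed without blocks as well (edgeR adjusted p = 0.048 and 0.0202). Irf7, a transcription factor of the interferon response, rose by 1.91 in wt (edgeR adjusted p = 1.45e-06) and 2.12 in BMI1-KO (adjusted p = 1.91e-07). Irf1, a direct activator of class I genes, was at 0.28 and −0.13 and did not pass, nor did Rfx5, Rfxap or Rfxank, subunits of the RFX complex that Nlrc5 joins (these 4 were named after their values were seen). Of 23 tested interferon response genes 19 rose in wt and 23 in BMI1-KO, where 1.06% and 1.85% of all genes were called higher. Their medians were 1.24 and 1.53, beside 0.004 and −0.0071 over all genes. Without blocks 8 passed in each genotype, where 0.0916% and 0.190% of all genes were called. This list was chosen with earlier results of these data known, so its counts beside those shares are a description and not an independent test. Ifit2, an antiviral gene of the list, rose by 2.45 in wt (edgeR adjusted p = 2.02e-09) and 3.16 in BMI1-KO (adjusted p = 4.31e-11). Between genotypes 0 genes of these 4 lists passed edgeR in either culture. The lists held 16, 14, 26 and 23 tested genes, in the order given. At an unadjusted p under 0.05 edgeR had 1, 1, 1 and 5 of them in MΦs, where 5.77% of all genes were. In MM-MΦs it had 0, 1, 1 and 8 (5.02% of all genes). Of the interferon response genes 16 of 23 were higher in BMI1-KO in MΦs (median log2 fold change 0.31), as were 48.3% of all genes. In MM-MΦs 19 of 23 were (median 0.41), as were 47.5% of all genes. The medians of the other lists were 0.0040, 0.16 and 0.057 in MΦs and 0.010, −0.011 and 0.038 in MM-MΦs. Over all genes they were −0.01 and −0.014.

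Over the 12 libraries the genes most like the mean of the 10, each scaled to its own spread, were Hivep1 (Pearson r = 0.924), Tgm2 (r = 0.923), Rrbp1 (r = 0.922), Gbp3 (r = 0.915) and Gm4951 (r = 0.912), out of 14187 genes searched. These correlations rest on 12 libraries that share replicate numbers, and they carry no test. Gbp3 is a guanylate-binding protein induced by interferon.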

How the data were processed

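Total RNA of sorted macrophages was sequenced. The submitters' processing notes name cutadapt 1.9.1, HISAT2 2.0.1, HTSeq 0.6.1 and DESeq2 on GRCm38, without roles. The table deposited by the authors holds raw counts per gene for 12 libraries. The FPKM values deposited per library were scaled by the authors to library total and summed exon size.

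Counts were filtered with filterByExpr (minimum count 10), scaled by TMM and fitted over all 12 libraries with edgeR 4.0.16 (R 4.3.3) in a quasi-likelihood model of the 4 groups, with Benjamini-Hochberg adjustment over all 14197 genes and a threshold of 0.05. A fit with 6 pairs (genotype by number) as blocks was added, since same-numbered MΦs and MM-MΦs of a genotype deviated together (correlations 0.55, 0.36 and 0.73 in wt, 0.64, 0.18 and 0.60 in BMI1-KO). The labels give the numbers but not what they share. DESeq2 1.42.0, limma-voom (limma 3.58.1), other scalings and filters, and fits without single libraries, pairs or the 4 libraries numbered 3 were alternatives. The fit of 1 common co-culture effect and the variants of the block fit were chosen after the data were seen. CPM used TMM-scaled library sizes, and pair differences are of log2 CPM with a prior count of 2. Ratios of FPKM were compared by exact permutation tests. Scripts were tested on simulated data. Genes named were the 10 members, Psmb5, Psmb6, Psmb7, Bmi1, up to 3 genes with the smallest adjusted p of each list, and the 5 genes most like the members, with exceptions said where they stand. The members and lists were chosen with earlier results of these data known. Some genes of the lists are not reported here.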

Additional observations from a re-analysis of the deposited data

How the results depend on the processing

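In 22 fits none of the 10 genes was called between genotypes. With the pairs as blocks members called went from 0 to 2 in wt and from 0 to 3 in BMI1-KO, and calls over all genes from 13 to 156, from 27 to 308 and, for the interaction, from 0 to 1. Without the 4 libraries numbered 3 the block fit called 1 member and 99 genes in wt and 1 member and 155 genes in BMI1-KO. That reduced fit called 0 genes for the interaction. With all 12 libraries DESeq2 with blocks called 3 genes for the interaction. When each pair was left out of the block fit, members called ran from 1 (without wt pair 3) to 3 (without BMI1-KO pair 3) in wt and from 1 (without BMI1-KO pair 3) to 4 (without BMI1-KO pair 1) in BMI1-KO, and genes called from 94 to 174, from 172 to 315 and, for the interaction, from 0 to 2. A block by number over all 4 groups, whose numbers are not known to pair genotypes (correlations −0.031 to 0.51), called 63 genes in wt and 110 in BMI1-KO on co-culture, 206 between genotypes in MΦs and 181 in MM-MΦs, and called 0 of the 10 genes in each of these 4 comparisons. Calls over all genes between genotypes were 9 in MM-MΦs, against 89 with DESeq2, 21 with no filter, 4 with only the 6 libraries compared and 3 to 11 when each library was left out, and 7 in MΦs, against 80, 14, 2 and 2 to 6. For co-culture without blocks they were 13 in wt, against 58 with DESeq2, 2 with limma-voom, 6 with library totals only, 22 with no filter, 6 with only the 6 libraries compared, 1 without number 3 and 0 to 21 when each library was left out. In BMI1-KO they were 27, against 91 with DESeq2, 13 with library totals only, 42 with no filter, 0 with only the 6 libraries compared, 1 without number 3 and 4 to 23 when each library was left out. The cause of these shifts was not tested.

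The signs of small log2 differences between genotypes were not stable. Without number 3, Psmb9 in MM-MΦs was at 0.27, and in MΦs B2m was at 0.10, Tap1 at 0.0045, Tap2 at 0.091 and Psmb9 at 0.11. Tap2 in MΦs was at 0.0027 with upper-quartile scaling, and Nlrc5 in MΦs at −0.014 with limma-voom and −0.013 with the block over 4 groups. Leaving out each library gave, in MM-MΦs, −0.30 to 0.12 for H2-K1, −0.086 to 0.21 for B2m, −0.20 to 0.051 for Tapbp, −0.29 to 0.17 for Psmb9, −0.32 to 0.078 for Psmb10 and −0.036 to 0.49 for Nlrc5. In MΦs it gave −0.37 to 0.095 for H2-K1, −0.68 to 0.17 for H2-D1, −0.36 to 0.22 for B2m, −0.23 to 0.036 for Tap1, −0.14 to 0.043 for Tap2, −0.39 to 0.081 for Tapbp, −0.65 to 0.013 for Psmb9 and −0.19 to 0.25 for Nlrc5. For co-culture without blocks it gave, in wt, −0.089 to 0.41 for H2-K1, −0.24 to 0.50 for H2-D1, −0.041 to 0.41 for Psmb9 and −0.080 to 0.26 for Psmb10, and in BMI1-KO −0.040 to 0.41 for H2-K1, −0.37 to 0.37 for H2-D1 and −0.015 to 0.16 for Tap2. With blocks and each pair left out, Tap2 ran from −0.047 to 0.37 and Psmb10 from −0.10 to 0.30 in wt, H2-D1 from −0.067 to 0.11 and Tap2 from −0.049 to 0.12 in BMI1-KO, and the interaction of B2m from −0.018 to 0.41 and of Tap1 from −0.16 to 0.026. H2-D1 in BMI1-KO with blocks was at 0.0047 with RLE scaling and with DESeq2. Log2 ratios ran, when each library was left out, from −0.13 to 0.39 (MM-MΦs) and −0.46 to 0.11 (MΦs) between genotypes and −0.034 to 0.48 (wt co-culture) for Psmb9 to Psmb6, from −0.31 to 0.36 (MM-MΦs, between genotypes) and −0.45 to 0.23 (wt co-culture) for Psmb10 to Psmb7, and from −0.091 to 0.097 (MM-MΦs, between genotypes) for Psmb8 to Psmb5.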
